A study of Homo sapiens with 4 samples.

Results

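The genes described here are 59 nuclear genes that encode subunits of the mitochondrial respiratory chain and ATP synthase. They were chosen by function, but with earlier results of these data known. They account for 59 of the 20037 protein-coding genes of the RefSeq table used here. Of them, 25 are in complex I, 4 in complex II, 7 in complex III, 10 in complex IV and 13 in complex V. NDUFA4, which the table lists under the symbol COXFA4, was counted with complex IV. A peak was assigned to a gene when it lay on the gene's own strand (a sense peak), mainly in coding sequence (CDS), UTR, noncoding exon or intron, and carried the gene's Ensembl identifier. These identifiers were named by position on GRCh38, and 54 of the 59 genes had one.

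The data came from iRIP-seq of Jurkat, a human T-ALL cell line, in which protein and RNA were crosslinked with UV light and RNA bound to IGF2BP2 was pulled down with anti-IGF2BP2. The series holds 2 IGF2BP2_IP libraries, called replicates 1 and 2, and 2 input libraries, all from cells with no treatment or altered genotype named in the labels. Nothing in the labels says whether the replicates came from separate cultures. The inputs were not analysed here, so no value below is relative to the amount of each RNA.

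The respiratory chain passes electrons from NADH and succinate to oxygen through complexes I to IV and pumps protons across the inner mitochondrial membrane, and complex V uses the proton gradient to make ATP. All complexes except complex II combine subunits encoded in the nucleus, translated in the cytosol and imported, with subunits encoded in mitochondrial DNA. IGF2BP2 is a cytoplasmic RNA-binding protein that reads m6A, for which GGAC is a common sequence context, and is known to stabilise and localise its target mRNAs.

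The peak list of replicate 1 held 74237 sense peaks among 145715, and that of replicate 2 held 77288 among 137934. Peak heights are given in tags, not adjusted for depth, because the lists give no read totals. Replicate 1 listed peaks from 4 tags upwards and replicate 2 from 5 tags. Of 9 T cell marker genes, 7 had a sense peak in both replicates and 6 an overlapping one, against 1 and 0 of 4 B cell markers, 1 and 0 of 4 myeloid markers and 0 of 2 erythroid markers. Intervals below are 95% Wilson intervals, which cover counting error only.

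Sequence under a peak is shown for 3 genes whose first exon carried a peak in both replicates and lay within the RefSeq start windows (GRCh38.p14). They were taken because their peaks began next to the transcription start. ATP5MC3, on the minus strand, also had a pair wholly in 5′ UTR, 10 nt from its start with 7 and 6 tags, and is not shown. Each line gives at most 30 bases of the transcribed plus strand that lay under both peaks, in lower case with GGAC in capitals. The NDUFB10 bases lie at chr16:1959551-1959580, the COX6B1 bases at chr19:35648351-35648372 and the COX7C bases at chr5:86617951-86617980, all in 5′ UTR.
NDUFB10: taggccgcgGGACccGGACggaggtagagg
COX6B1: tgtctttgctgagggtcacatt
COX7C: cttgcgcaccggggaacaaggtcgtgaaaa
The stretch of NDUFB10, an accessory subunit of the complex I membrane arm, held GGAC 2 times within positions 14 to 43 of the transcript, under peaks that reached 7 tags in replicate 1 against 12 in replicate 2. That of COX6B1, a complex IV subunit facing the intermembrane space, held none at positions 29 to 50, with 6 and 10 tags. That of COX7C, a small membrane subunit of complex IV, held none at positions 11 to 40, with 4 and 10 tags. The letters GGAC, searched on the transcribed strand, were present in the first 50 transcribed bases of 13 of 58 start windows of 49 members (22.4%) and in 19.8% of 22199 windows of all protein-coding genes. The shorter letters GGA, which each GGAC also holds, were present in 55.2% of the members' windows and in 67.5% of all windows. Some genes have several start windows. A match to these letters is a description of the window and not a mapped site.

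Sense peaks were found on most of the 59 genes. In replicate 1, 42 genes carried one (71.2%, 58.6% to 81.2%), against 56.0% of all protein-coding genes. In replicate 2, 54 genes did (91.5%, 81.6% to 96.3%), against 54.3%. All 42 genes of replicate 1 also had a peak in replicate 2, so 71.2% had one in both, against 45.1% of all protein-coding genes. That background counts genes with no named identifier as without a peak. Among genes that carried an identifier, the share was 42 of 54 members (77.8%, 65.1% to 86.8%) and 69.2% of 13073 protein-coding genes. A peak of replicate 1 was overlapped by a peak of replicate 2 in 30 genes (50.8%, 38.4% to 63.2%), against 15.3% of all protein-coding genes. Among genes with an identifier it was 55.6% of the members (42.4% to 68.0%), against 23.4%. An exonic peak in both replicates was present in 33 genes (55.9%), against 22.2%. Counting every sense peak inside the gene on its strand, whatever its identifier, gave 42 and 30 members. A strand was listed for 49 members. That of the others was taken from their own peaks, so for them the recount is no independent check. The background was 49.3% and 16.9% of the 15843 protein-coding genes with a listed strand. No test of the list was run, because its members were chosen with earlier results of these data known.

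Peak number varied widely among the genes and ranked them similarly in the replicates. The 59 genes had 134 sense peaks in replicate 1 and 159 in replicate 2, a mean of 146.5, with a median of 2 peaks per gene in each. The number of peaks in replicate 1 had a Spearman correlation of 0.69 and a Pearson correlation of 0.79 with that in replicate 2 across the 59 genes, which share the 2 libraries. NDUFA10, an accessory subunit of complex I, had the most peaks, 16 in replicate 1 and 11 in replicate 2. It also had the longest gene, at 133 kb, and 11 and 10 of its peaks were mainly intronic.

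**Figure D1:**
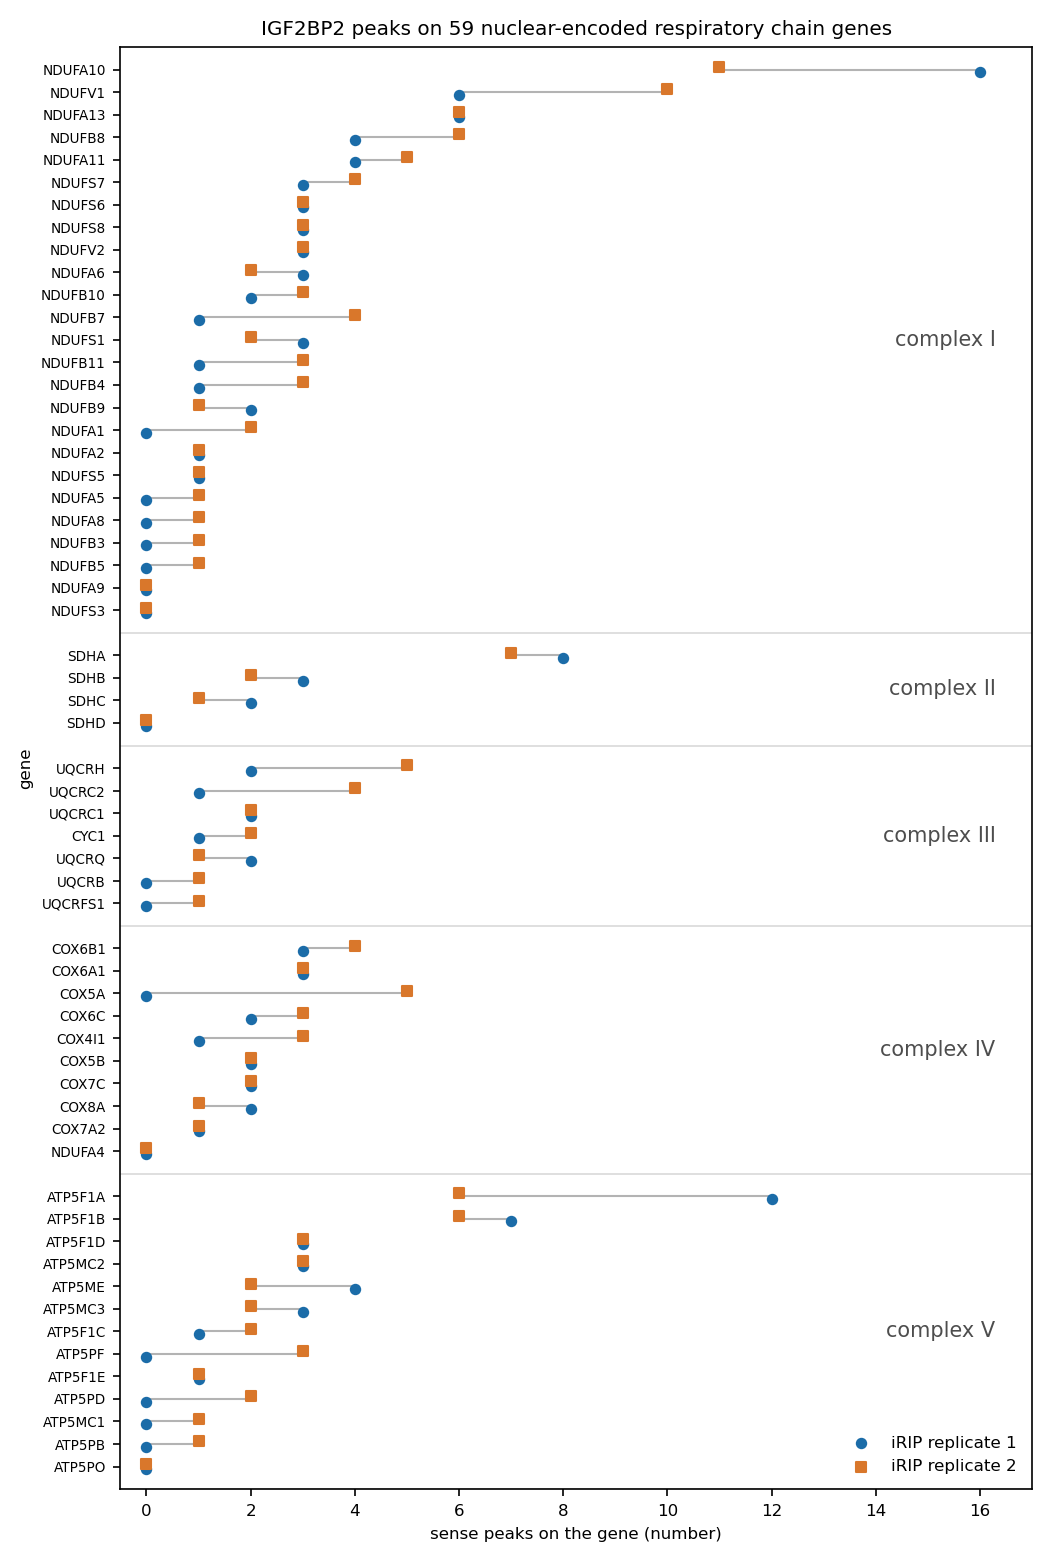
Number of sense peaks (x axis) on each of the 59 genes (y axis, grouped by complex) in replicate 1 (circles) and replicate 2 (squares), joined by a line. NDUFA10, with 16 and 11 peaks, and ATP5F1A, with 12 and 6, lie farthest to the right, and 5 genes have no peak in either replicate.

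The 5 genes without a sense peak in either replicate (8.47%, against 34.8% of all protein-coding genes) belonged to complexes I, II, IV and V. They were NDUFS3, a core subunit of complex I, NDUFA9, an accessory subunit of complex I, SDHD, a membrane anchor of complex II, NDUFA4 of complex IV, and ATP5PO, the oligomycin sensitivity subunit of the complex V stalk. The absence of NDUFA9 rests on naming, since an identifier with 2 of its 4 sense peaks inside that gene, both intronic and in replicate 1, was not counted for it. A further 12 genes (20.3%) had peaks only in replicate 2, against 9.22% of all protein-coding genes, and 0 genes only in replicate 1, against 10.9%. These 12 were NDUFA1, NDUFA5, NDUFA8, NDUFB3 and NDUFB5 of complex I, UQCRB and UQCRFS1 of complex III, COX5A of complex IV, and ATP5PB, ATP5PD, ATP5PF and ATP5MC1 of complex V. COX5A stood apart among them with 5 peaks in replicate 2, the highest of 10 tags in CDS, and no peak on the others exceeded 7 tags. The depth of the libraries is unknown, so a gene without a peak was not detected at this depth and is not shown to be unbound.

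The peaks of the respiratory chain genes lay mostly in coding sequence. In replicate 1, 72 of 134 peaks were mainly in CDS (53.7%, 45.3% to 62.0%), against 24.6% of the 59150 sense peaks on named protein-coding genes. In replicate 2, 83 of 159 were (52.2%, 44.5% to 59.8%), against 30.4% of 64106. The mean of the members over the replicates was 53.0% ± 1.08 (SD, n = 2). Over all sense peaks, noncoding genes included, the CDS held 19.9% and 25.6%. The 5′ UTR held 7.46% and 8.81% of the members' peaks in replicates 1 and 2, against 3.37% and 3.88% on protein-coding genes. The 3′ UTR held few, 2 peaks (1.49%) and 4 peaks (2.52%), against 4.36% and 4.61%. Wholly intronic peaks made up 20.1% and 18.9%, against 56.8% and 48.0%. The genes had a median length of 10.5 kb (1.84 to 133 kb), against 24.1 kb for all protein-coding genes, and the part of length in the region shares was not tested.

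Peaks found at the same position in both replicates all touched an exon. Of the peaks of replicate 1, 53 (39.6%, 31.7% to 48.0%) were overlapped by a peak of replicate 2, against 19.9% on named protein-coding genes. Of the peaks of replicate 2, 53 (33.3%) were overlapped, against 18.2%. On protein-coding genes, 90.6% of the 11757 overlapped peaks of replicate 1 touched an exon. Of the 53 pairs, 44 had the same bounds in both replicates. The pairs lay mainly in CDS in 36 cases, in 5′ UTR in 7, in noncoding exon in 3 and in intron with a share of exon in 7. The 3′ UTR was the main region of 0 pairs. Wholly intronic peaks were overlapped in 0 of 27 cases in replicate 1 (upper limit 12.5%) and 0 of 30 in replicate 2 (upper limit 11.4%), against 3.30% and 3.58% on protein-coding genes, shares that lie within those limits. Among CDS peaks alone the share overlapped was 50% of 72 in replicate 1, against 45.9%, and 47.0% of 83 in replicate 2, against 35.1%.

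The pairs were also described by what they covered and by their distance from the transcription start. A total of 29 pairs (54.7%, 41.5% to 67.3%) covered both CDS and intron sequence, close to the 51.5% of overlapped peaks on protein-coding genes. Of the 53 pairs, 16 (30.2%, 19.5% to 43.5%) lay within 500 nt of the start, in 14 genes, against 10.3%. In genes under 10 kb the share was 11 of 30 pairs (36.7%, 21.9% to 54.5%), against 27.0% of 1461 overlapped peaks on protein-coding genes of that length. Both 5′ UTR and CDS were labelled in 4 pairs (7.55%, 2.97% to 17.9%), against 3.75%, and both CDS and 3′ UTR in 4 pairs, against 1.59%. Shared labels do not always mark the end of the CDS. The NDUFB8 pair at chr10:100529350-100529450, labelled with CDS and 3′ UTR, lay 473 nt from the start.

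The heights of the paired peaks were low to moderate. Over all peaks of the genes, heights ran from 4 to 17 tags in replicate 1 with a median of 5, and from 5 to 20 in replicate 2 with a median of 6. The medians of the overlapped peaks were 6 and 9 tags. Replicate 2 was the higher in 37 pairs, replicate 1 in 12, and 4 were equal. The heights had a Spearman correlation of 0.24 and a Pearson correlation of 0.13 over the 53 pairs, so the order of heights in one replicate was little reflected in the other. A peak of at least 10 tags was found in 7 genes in replicate 1, against 4.35% of all protein-coding genes, and in 20 genes in replicate 2, against 10.0%. In both replicates it was found in 5 genes (8.47%, 3.67% to 18.4%), NDUFB8, COX6A1, COX7C, ATP5F1A and ATP5ME, against 3.82% of all protein-coding genes. Among genes with an identifier it was 9.26% of the members, against 5.86%. NDUFB8 stands in this list through an identifier that also has antisense peaks outside the gene. At 5 tags, a height from which both lists run, 32 genes (54.2%) had a peak in both replicates, against 27.6%, and 26 (44.1%) a pair, against 12.1%. In 4 of the 5 genes with at least 10 tags in both (6.78%, against 2.89%) the high peaks overlapped, and in COX7C they lay at different positions.

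**Figure D2:**
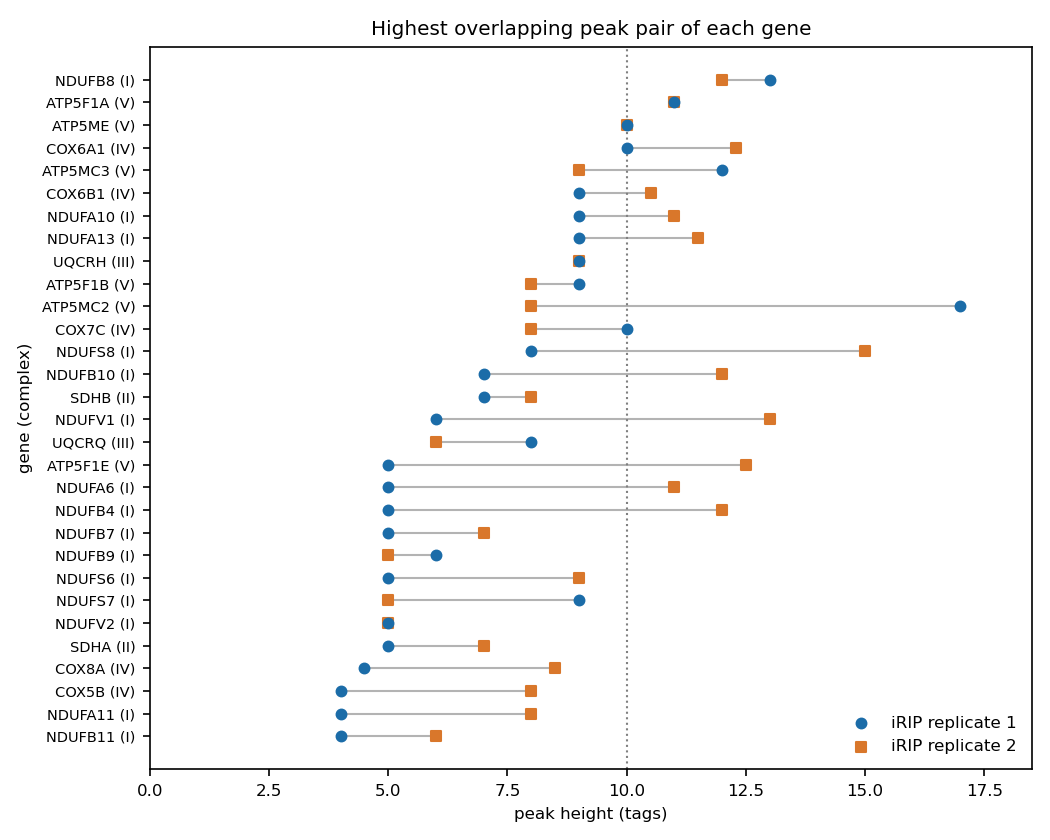
Height in tags (x axis) in replicate 1 (circles) and replicate 2 (squares) of the highest overlapping peak pair of each of the 30 genes that had one (y axis, complex in brackets). The dotted line marks 10 tags, which both replicates reach in NDUFB8, ATP5F1A, ATP5ME and COX6A1.

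Complex I had a peak in both replicates in 18 of 25 genes and an overlapping pair in 15 (60.0%, 40.7% to 76.6%). Its core subunits, which carry the flavin and iron-sulfur clusters or shape the quinone site, had a peak in both replicates in 5 of 6 genes and a pair in 4, and the accessory subunits in 13 and 11 of 19 genes. NDUFV1, the NADH-binding flavoprotein, had 6 peaks in replicate 1 and 10 in replicate 2, none of them in the 3′ UTR. Its pair at chr11:67609450-67609500 in CDS reached 4 tags in replicate 1 against 19 in replicate 2, and a pair at chr11:67608350-67608400 at the junction of 5′ UTR and CDS had 6 and 13 tags. Replicate 2 was thus well above replicate 1 at both sites. NDUFS8, an iron-sulfur core subunit, had 3 peaks in each replicate, and all 3 lay at the same positions in CDS. The highest, at chr11:68036250-68036300, had 8 and 15 tags. NDUFS7, which holds the last iron-sulfur cluster before quinone, had 3 and 4 peaks and a pair of 9 and 5 tags.

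Among the accessory subunits of complex I, NDUFB8 had the highest pair by the lower of both heights, with 13 tags in replicate 1 and 12 in replicate 2 at chr10:100529750-100529800 on the minus strand. The peak lay 68% in CDS and 123 nt from the transcription start, and 89.0% of the 3063 protein-coding genes with a pair had a lower best pair, whose median was 6 tags. NDUFA13, also known as GRIM-19, had the most pairs of any member. It had 6 peaks in each replicate, of which 5 overlapped. At chr19:19528000-19528050, across the end of the CDS, its peak reached 9 tags in replicate 1 and 20 in replicate 2, the highest on any of the 59 genes. Its other pairs had heights of 9 and 11.5, 8 and 13.5, 7 and 9, and 4 and 7.5 tags, higher in replicate 2 each time. NDUFA10 had 1 pair, of 9 and 11 tags, at the border of CDS and intron 92 nt from the start, and its wholly intronic peaks matched nowhere between replicates. NDUFB10 had pairs of 7 and 12 tags in the 5′ UTR, under the sequence shown above, and of 4 and 10 tags in CDS. The identifiers of NDUFA11 and NDUFB8 had peaks outside these genes, 2 of 11 sense peaks and 1 antisense peak for NDUFA11 and 3 antisense peaks for NDUFB8. They may stand for read-through genes that join a neighbour, so the values of NDUFB8 and NDUFA11 are uncertain. With both counted as without a peak, 40 members had a peak in both replicates and 28 a pair. The identifier of NDUFB9 had 1 of 4 sense peaks outside its gene, and that of ATP5MC2 had 1 of 7 and 1 antisense peak. In these numbers a sense peak within 1000 nt of a gene counted as inside it. Within that margin but beyond the end of the gene lay wholly intronic peaks of NDUFB8, at chr10:100523300-100523350, and COX6C, at chr8:99877000-99877050. Both were in replicate 1.

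Complex II, which oxidises succinate and is encoded in the nucleus alone, had a peak in both replicates in 3 of 4 genes and a pair in 2 (50%, 15% to 85%). Both genes with a pair encode its catalytic subunits. SDHA, the flavoprotein, had 8 peaks in replicate 1 and 7 in replicate 2, but only 1 overlapped, with 5 and 7 tags at chr5:225850-225900. Its highest peak had 16 tags, lay across a CDS border at chr5:230850-230900 in replicate 2 and had no counterpart in replicate 1. SDHB, the iron-sulfur subunit, had a pair of 7 and 8 tags 82 nt from the start, 94% of it in intron. The membrane anchor SDHC had 2 peaks and 1 peak, all wholly intronic and none overlapped.

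Complex III had a peak in both replicates in 5 of 7 genes and a pair in 2 (28.6%, 8.22% to 64.1%), both of which encode small subunits. UQCRH, the hinge protein, had 2 peaks in replicate 1 and 5 in replicate 2. Its pair across the end of the CDS at chr1:46316550-46316600 had 9 tags in each replicate, and the other, at chr1:46310150-46310250, had 5.5 and 8.5 tags. UQCRQ had a pair of 8 and 6 tags at the junction of 5′ UTR and CDS. The redox subunits CYC1, cytochrome c1, and UQCRFS1, the Rieske iron-sulfur protein, had 1 and 0 peaks in replicate 1 and 2 and 1 in replicate 2, with no overlap. UQCRC2, a core protein, had 1 and 4 peaks, also with no overlap.

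Complex IV, cytochrome c oxidase, had a peak in both replicates in 8 of 10 genes and a pair in 5 (50%, 23.7% to 76.3%). The genes here encode the subunits that surround the catalytic core made in mitochondria. COX6B1 had 3 peaks in replicate 1 and 4 in replicate 2, and all 3 of replicate 1 were overlapped. Its pair at chr19:35651200-35651250, at the junction of 5′ UTR and CDS, had 9 and 10.5 tags, and its CDS pair at chr19:35654550-35654600 had 4 and 18 tags. The first pair was thus close in height between replicates and the second was not. COX6A1 had a pair of 10 and 12.3 tags at the border of CDS and intron. COX7C had a CDS pair of 10 and 8 tags at chr5:86619350-86619400, besides that in the 5′ UTR shown above.

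Complex V had a peak in both replicates in 8 of 13 genes and a pair in 6 (46.2%, 23.2% to 70.9%). The 5 subunits of the catalytic F1 head, ATP5F1A to ATP5F1E, all had a peak in both replicates, and 3 had a pair. The 4 genes of the peripheral stalk, ATP5PB, ATP5PD, ATP5PF and ATP5PO, had 0 peaks in replicate 1 and 6 in replicate 2. Of these 4 genes, 0 and 3 carried a peak, against 56.0% and 54.3% of all protein-coding genes. ATP5F1A, the alpha subunit, had 12 and 6 peaks, with a pair of 11 and 11 tags at chr18:46087000-46087050 in CDS and another of 4 and 9 tags. ATP5F1B, the catalytic beta subunit, had 7 and 6 peaks and 4 pairs, the highest of 9 and 8 tags at chr12:56639100-56639150 and another of 7 and 15 tags. Of the genes ATP5MC1, ATP5MC2 and ATP5MC3, which encode the same mature subunit c of the membrane ring, ATP5MC2 had a CDS pair of 17 and 8 tags and ATP5MC3 one of 12 and 9 tags. ATP5MC1 had a single peak of 5 tags, in the 5′ UTR in replicate 2. ATP5ME, subunit e, has the shortest gene of the 59, at 1.84 kb, and had CDS pairs of 10 and 10 and of 11 and 8 tags.

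Between the complexes the intervals of the share with a pair overlapped throughout, from 28.6% in complex III to 60.0% in complex I, and with 4 to 25 genes each no order among them was resolved. Of all protein-coding genes, 45.1% had a peak in both replicates and 15.3% a pair. Among those with an identifier the shares were 69.2% and 23.4%. The role groups within complexes are small, and their difference from these shares was not tested. Median gene length ran from 7.79 kb in complex IV to 42.1 kb in complex II. The CDS share of peaks in replicates 1 and 2 was 52.4% and 50.6% in complex I, 23.1% and 40.0% in complex II, 50% and 50% in complex III, 37.5% and 58.3% in complex IV, and 76.5% and 56.2% in complex V.

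Other genes of the pathway were counted from 2 lists of nuclear genes. The 59 members and these lists were separated with earlier results known, so a difference between them is in part a matter of that choice, and none was tested. The list of 28 other nuclear subunit genes includes ATP5IF1 and CYCS, which are not subunits of a complex in the strict sense. It also includes the alternative COX subunit genes COX4I2, COX6A2, COX6B2, COX7A1 and COX8C, of which only COX4I2 had a peak. Of the 28 genes, 11 (39.3%, 23.6% to 57.6%) had a peak in both replicates and 8 (28.6%) an overlapping pair. The shares of all protein-coding genes were 45.1% and 15.3%. No peak was found on 13 of the 28, against 34.8% of all protein-coding genes. The highest pair of the list, with a lower height of 16 tags, was on ATP5IF1, the inhibitor of complex V. NDUFA3, a complex I subunit, also had a pair of at least 10 tags. Of 47 assembly factor genes, 19 (40.4%, 27.6% to 54.7%) had a peak in both replicates and 2 (4.26%, 1.17% to 14.2%) a pair. These were COX17, the copper chaperone of complex IV, with a lower height of 9 tags, and FOXRED1, a complex I assembly factor, with 4 and 5 tags. Assembly factor genes had a median length of 16.9 kb. Neither list held a peak on the mitochondrial chromosome, so the 13 subunits encoded there had none.

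**Figure D3:**
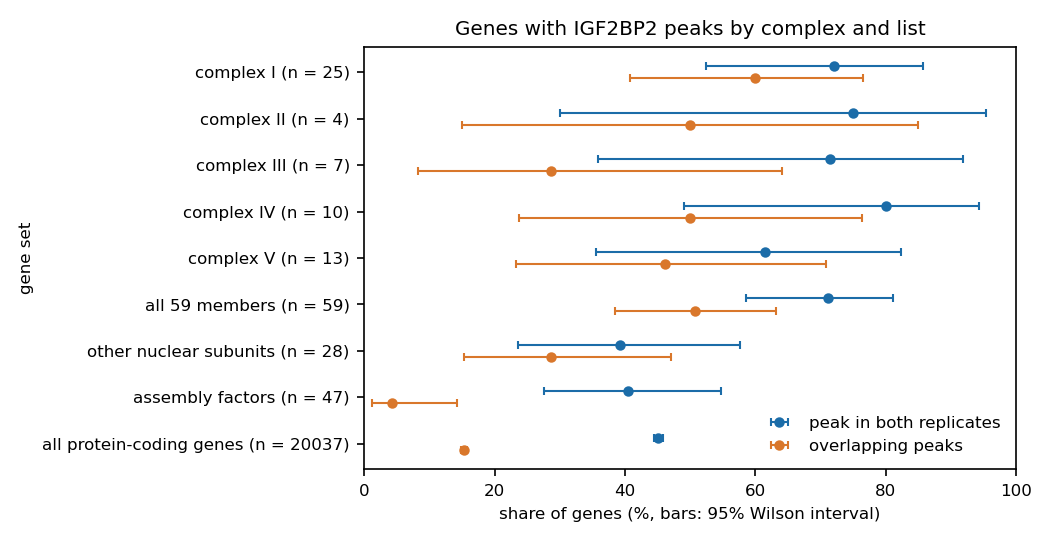
Share of genes (x axis, %) with a sense peak in both replicates (blue) and with overlapping peaks (orange) for each complex, all 59 genes, 2 lists of other pathway genes and all protein-coding genes (y axis). Bars are 95% Wilson intervals, which overlap between complexes I to V for both measures.

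Gene length was set beside the counts because longer genes held more peaks. Across all protein-coding genes, length and mean peak number had a Spearman correlation of 0.59, and across the 59 genes one of 0.04. Under 10 kb, 22 of 29 respiratory chain genes (75.9%) had a peak in both replicates and 17 (58.6%) a pair, against 16.6% and 10.0% of all protein-coding genes of that length. From 10 to 30 kb the members' shares were 61.9% and 42.9% of 21 genes, against 34.5% and 15.2%. Over 30 kb they were 77.8% and 44.4% of 9 genes, against 70.1% and 18.7%. These backgrounds count genes with no named identifier as without a peak. On this base, the distance from the background in peak presence was widest among the short genes. Among genes of any length that carried an identifier, 77.8% of members and 69.2% of protein-coding genes had a peak in both replicates. Those shares were not split by length. The level of each RNA was not analysed here, and its part in these shares was not tested.

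Many of these genes have pseudogenes, counted here by name whatever their type. Reads that map to several places were not kept. In all, 40 of the 59 genes had at least 1 pseudogene in the table, 174 altogether. Of the 19 genes without one, 17 had a peak in both replicates and 12 a pair. Of the 25 genes with 1 to 4 pseudogenes the numbers were 16 and 12, and of the 15 genes with at least 5 they were 9 and 6. The shares of all protein-coding genes were 45.1% and 15.3%, and 69.2% and 23.4% of those with an identifier. In the same order, these classes of members had median gene lengths of 5.49, 12.6 and 10.5 kb. Number of pseudogenes and mean peak number had a Spearman correlation of -0.23 over the 59 genes. The parts of lost reads and of gene length in these values were not tested. Peaks on the pseudogenes, on either strand, numbered 23 in replicate 1 and 22 in replicate 2, and 18 and 17 of them lay on the 4 pseudogenes of SDHA. The peaks of SDHA itself are uncertain, because it has near copies.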

How the data were processed

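iRIP-seq of IGF2BP2 was analysed in 2 libraries of Jurkat cells from the deposited peak lists. The submitters' processing notes name GRCh38, bcl2fastq and TopHat 2. According to the methods, the authors kept uniquely mapped reads, called peaks by ABLIRC in each library and removed those overlapping input peaks. The height the authors deposited for each peak is a signal in tags, and their p-value was used only as a filter. Read totals are not given in the sources used here, so heights were compared without adjustment for depth.

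A peak was counted under the region that covered most of it. Identifiers were named for the RefSeq protein-coding gene (GRCh38.p14, on the same strand where the start table gave one, as for 49 members) holding over 0.5 of their sense peaks within 1000 nt. Peaks overlapped when they shared at least 1 bp on the same strand, with positions read as half-open. Peak positions are printed as deposited. The functions were tested on simulated data of 400 genes, where 388 of 388 identifiers were named rightly and 306 of 306 planted overlaps were found. Each simulated gene had its own identifier and a known strand. The simulation therefore did not cover read-through identifiers or genes of unknown strand, where naming is least certain. No list test was run.

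Genes are named where they had at least 10 tags in both libraries, were among the 15 highest pairs, had most peaks or pairs in their complex, or lacked a peak in a library. NDUFV1, NDUFS7, NDUFA11, SDHC, UQCRQ, UQCRC2 and CYC1 were added after their values were seen, by their role or, for NDUFA11, its identifier. The members, lists and roles were chosen with earlier results of these data known. Alternatives were a minimum of 5 or 10 tags, a p-value under 0.001, naming by interval alone, exonic peaks only, 50% overlap, the reverse direction, weighting by length and leaving out each replicate. Python 3.11.15, numpy 2.4.6, pandas 2.3.3, scipy 1.17.1 and matplotlib 3.10.9 were used.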

Additional observations from a re-analysis of the deposited data

How the results depend on the processing

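Of 86 values recomputed under 13 alternatives, 63 lay within a tolerance of the main value and 23 moved beyond it. The tolerance was 1.5 times for a count, 1 SD between replicates for the CDS share and the Wilson interval for the overlapped share. Within it, 32 genes had a peak in both replicates at 5 tags and 33 with exonic peaks only, where the mean number of peaks was 103.5, and the overlapped share was 33.3% for replicate 2 against replicate 1. With a minimum of 5 tags the CDS share was 55.0%, the overlapped share of replicate 1 51.3% and complex IV had 3 genes with a pair. With 10 tags, 5 genes had a peak in both replicates and 4 a pair, the mean number of peaks was 20, the CDS share 83.3%, and complexes I to V had 1, 0, 0, 1 and 2 genes with a pair. With a p-value under 0.001 these were 20 and 16 genes, 56.5 peaks and 67.1%, and complexes I to IV had 6, 1, 1 and 3 genes with a pair. With exonic peaks only, the overlapped share was 48.4% and complex II had 1 gene with a pair. With NDUFA11 and NDUFB8 counted as without a peak, chosen after seeing the data, the CDS share was 51.9%. The lower counts follow from fewer peaks passing the minimum, and the cause of the other changes was not tested. Leaving out each replicate gave 42 to 54 genes with a peak, 134 to 159 peaks and a CDS share of 52.2% to 53.7%. No paired analysis was possible because replicate numbers are shared only between the IGF2BP2 and input libraries, no values of the inputs were used here, and no result comes from a test. Most peaks lie within a few tags of the lowest height each list holds, which limits what absence of a peak can show. The authors' removal of peaks that overlapped input peaks limits it too.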
